A study of Mus musculus with 4 samples.

Results

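The genes described here are 43 components of the bone morphogenetic protein (BMP) and transforming growth factor beta (TGF-beta) pathways. They were chosen by name, with earlier results of these data known, as ligands, receptors, extracellular antagonists, latency proteins, Smads and Id targets. Each of the 43 was found among the 22180 genes that the arrays name. The platform was the Affymetrix Mouse Gene 2.0 ST array, with probes along the exons of annotated genes, and 4 arrays were run. One pair of groups was the head at embryonic day 12.5 (E12.5), from wild-type embryos and from embryos with a knockout of Tbx1 (Tbx1KO). The other pair was the palatal shelves at E13.5, wild-type and Tbx1KO. Each group held 1 array, all embryos shared a mixed C57BL/6J x FVB/N background, and the sources used here give neither the design of the knockout allele nor whether embryos were pooled. The question was which of these genes differ in level without Tbx1, a T-box transcription factor of the pharyngeal apparatus, and between the shelves and the head.

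Ligands of this family are secreted dimers that bring type I and type II receptor kinases together on the cell surface. The receptors phosphorylate receptor Smads, Smad1, Smad5 and Smad9 for BMP signals and Smad2 and Smad3 for TGF-beta and activin signals, which enter the nucleus with the common Smad4. Noggin, gremlin, chordin and follistatin bind ligands outside the cell, inhibitory Smads act inside it, and Id genes are direct transcriptional targets of BMP signals. In the palate, BMP signals between epithelium and mesenchyme are known for their part in shelf growth and bone formation, and TGF-beta signals for their part in shelf fusion.

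Values are log2 expression after RMA, and a difference of 1 is 2-fold. For a head or shelf comparison a gene had to reach log2 6.16, the median of the 22180 genes over the arrays, on at least 1 array of that pair. Of the 43 genes, 36 entered in the head, 37 in the shelves and 37 the fit of all 4 arrays. The 6 that reached the limit on no array were Gdf5, Gdf6, Inhbb, Nog, Chrd and Ltbp2, with levels between 4.94 and 6.14. Among them Nog, the gene of the BMP antagonist noggin, was at 6.02 and 6.13 in the wild-type and Tbx1KO heads and at 5.95 and 5.78 in the shelves. These 6 genes enter no count or test. Tbx1 itself was at 6.83 in the wild-type head and 6.25 in the Tbx1KO head, and at 7.39 in the wild-type shelves and 6.18 in the Tbx1KO shelves. It was thus lower in each array labelled Tbx1KO, although which part of the gene is deleted is not stated in the labels. The tissue labels were checked with markers. Of 10 palatal mesenchyme genes, 8 were higher in the shelves at a limma adjusted p under 0.05, among them Osr2 by 1.63 and Pax9 by 1.99 on the log2 scale, and 12 of 12 neuronal genes were lower there. The number of arrays limits the precision.

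**Figure D1:**
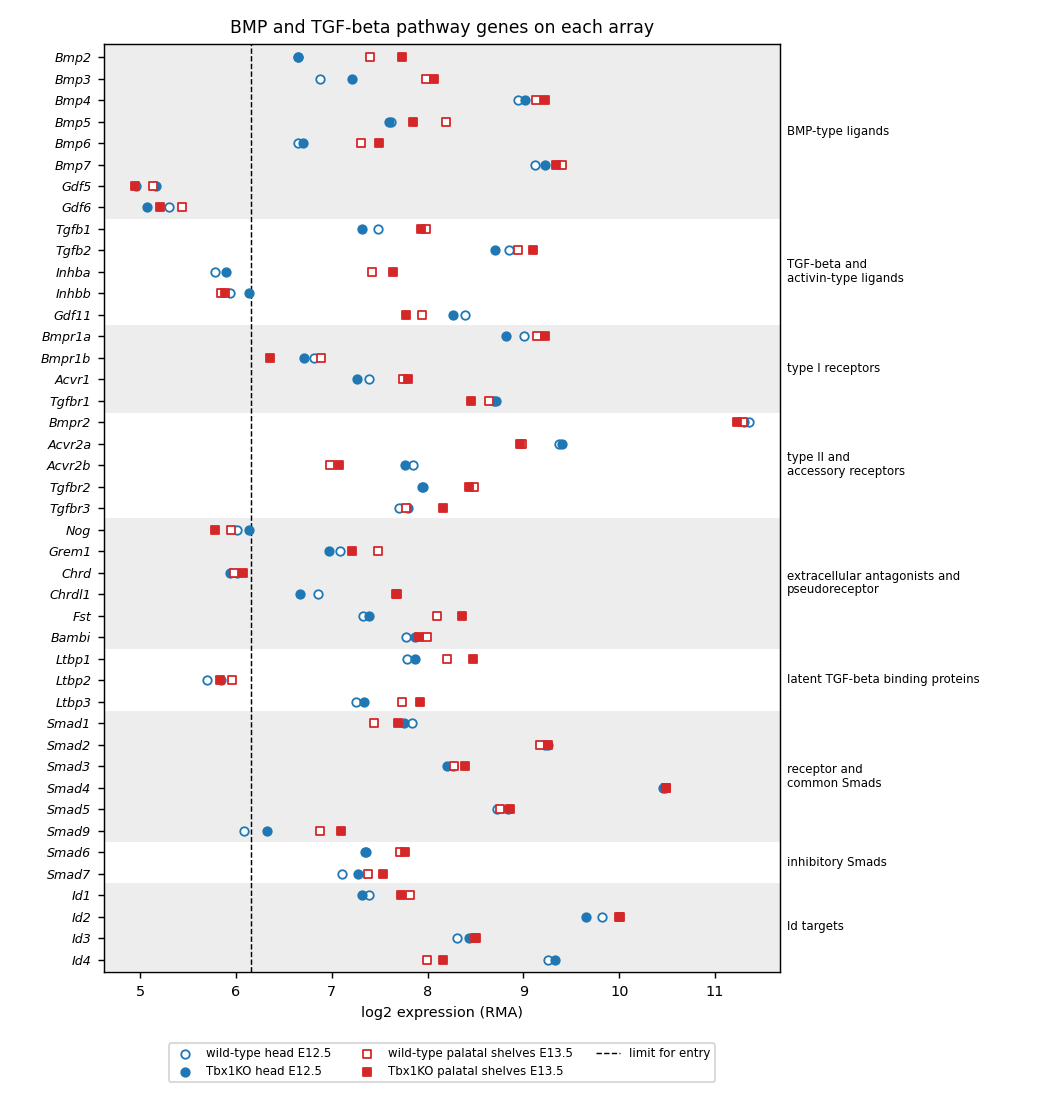
Log2 expression (RMA, x axis) of the 43 genes, grouped by role, on the 4 arrays; circles are heads, squares palatal shelves, open symbols wild type and filled symbols Tbx1KO, and the dashed line is the limit for entry at 6.16. Symbols of 1 tissue mostly lie close together, Inhba lies at 5.78 and 5.89 in the heads and at 7.42 and 7.64 in the shelves, and Id4 lies the other way.

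Without Tbx1, none of the chosen BMP and TGF-beta genes that entered differed by as much as 1.5-fold in either tissue. Some other genes of these pathways did, and they are given further below. In the head, log2 differences (knockout minus wild type) of the 36 genes ran from -0.19 for the BMP receptor gene Bmpr1a to 0.34 for the ligand gene Bmp3. In the shelves those of the 37 genes ran from -0.52 for the receptor gene Bmpr1b to 0.38 for the co-receptor gene Tgfbr3. The count at 1.5-fold was 0 of 36 in the head, where 0.458% of all 11364 genes reached it either way, and 0 of 37 in the shelves, where 3.25% of 11449 genes did. At 2-fold it was 0 in each tissue, beside 0.088% and 0.935% of all genes. With so few genes, counts of 0 are near those shares. With 1 array per group, these differences have no replicate check and no p-value.

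The directions were mixed. In the head 18 of 36 genes were above 0 (44.5% of all genes were) and the median difference was 0.0027, beside -0.017 over all genes that entered. In the shelves 24 of 37 (64.9%) were above 0 and the median was 0.084, beside 0.021 and a share of 55.2% over all genes. The median size of a difference, without its sign, was 0.089 in the head, where it was 0.086 over all genes, and 0.099 in the shelves, where it was 0.117. Markers differed between the head arrays along with these values. All 12 skeletal muscle genes were lower in the Tbx1KO head, with a median difference of -0.84, and all 5 erythroid genes, with a median of -0.45. Among 4 sex-linked genes, Xist, expressed from the inactive X chromosome, was at 11.10 in the wild-type head and 10.04 in the Tbx1KO head. The Y-linked genes Eif2s3y, Uty and Kdm5d were higher in the Tbx1KO head by 1.41, 1.39 and 1.32. Uty was at 6.91 in the wild-type head and 8.31 in the Tbx1KO head. In the wild-type and Tbx1KO shelves, Uty was at 8.44 and 8.32, and Xist at 10.89 and 11.02. Xist and Uty were thus both above the limit for entry on all 4 arrays, while Kdm5d was under it in the wild-type head. In the shelves the 4 sex-linked genes differed by -0.12 to 0.20. Whether an array held RNA of embryos of both sexes was not tested. The part of the marker shifts between the head arrays in the head differences of BMP and TGF-beta genes, such as Bmp3, Smad9 and Bmpr1a, was not tested. Among the 36 genes that entered both pairs, 26 differed by less than 0.2 on the log2 scale in each.

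**Figure D2:**
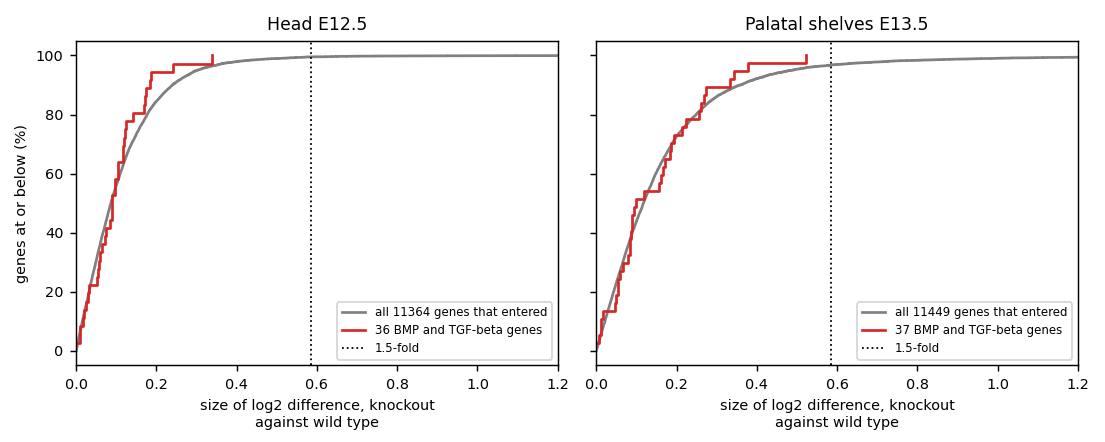
Share of genes (y axis, %) whose log2 difference between knockout and wild type has at most the size on the x axis, in the head (left) and the palatal shelves (right), for the BMP and TGF-beta genes (red) and all genes that entered (grey); the dotted line is 1.5-fold. The red line runs close to the grey line in each panel and reaches 100% before 1.5-fold, at 0.34 in the head and at 0.52 in the shelves.

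Over both pairs, none of the 37 genes passed for genotype. The additive limma fit of genotype and tissue gave coefficients with an SE of 0.099 to 0.13, where the SE rests on 1 residual degree of freedom and on a prior from all genes. Its smallest adjusted p among these genes was 0.919, and 0% of all 11999 genes tested passed an adjusted p of 0.05. The unadjusted value was under 0.05 for 1 gene, Bmpr1b, and for 5.23% of all genes. The 95% intervals of the 37 coefficients lay between -0.62 and 0.51 on the log2 scale. Of these intervals 36 held 0. Each interval gives the range of differences that these arrays do not exclude for that gene under the additive fit, and is not a limit of detection.

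**Figure D3:**
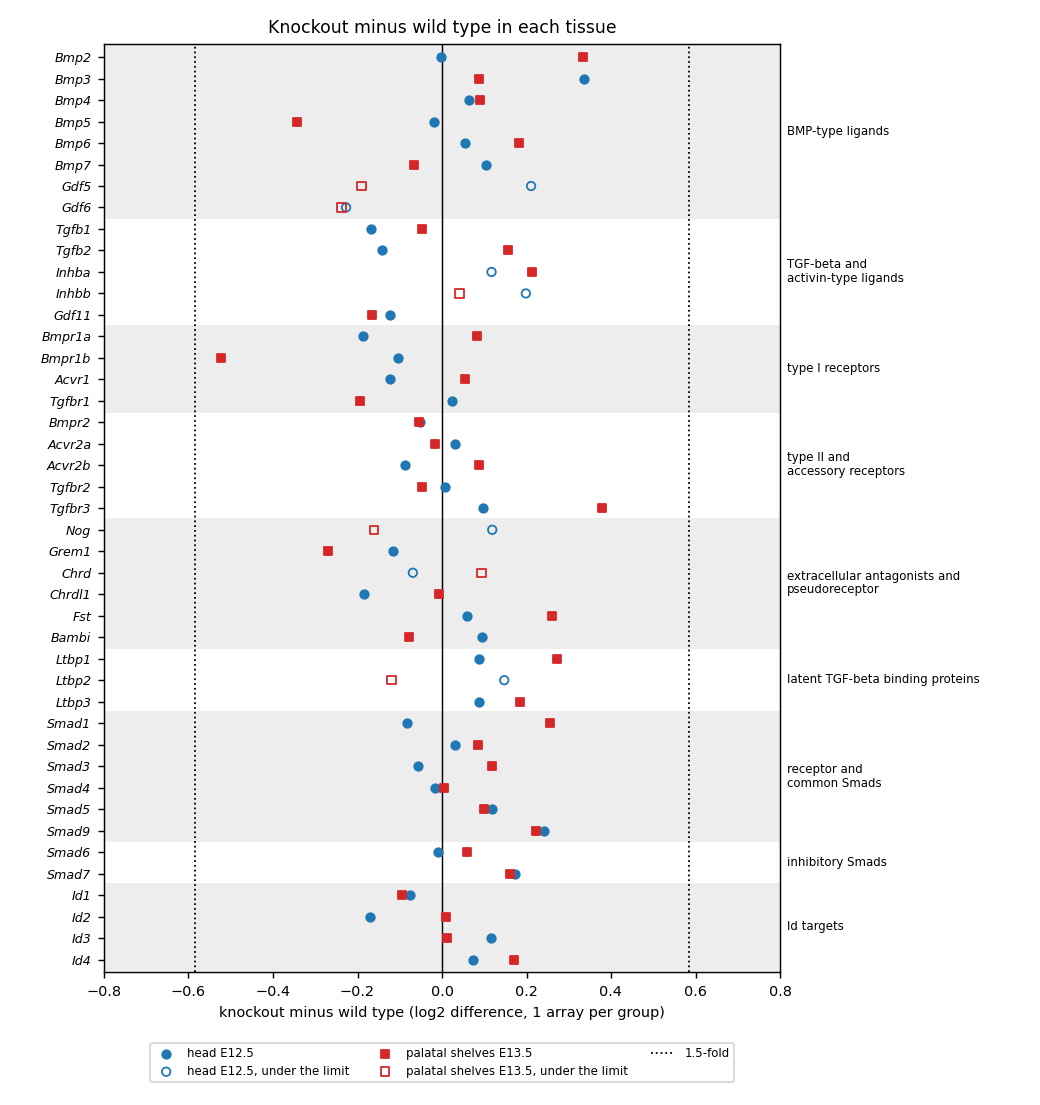
Knockout minus wild type (log2 difference, x axis, 1 array per group) for each of the 43 genes in the head (blue circles) and the palatal shelves (red squares); open symbols are genes under the limit for entry, and dotted lines are 1.5-fold. No symbol reaches a dotted line, and Bmpr1b in the shelves lies closest, at -0.52.

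Between tissues, many of these genes differed. In the same limma fit, 15 of the 37 genes were higher in the palatal shelves and 4 were lower at an adjusted p under 0.05. Among genes at or above the limit in both tissues, the largest difference was that of Id4, an Id gene of neural progenitors, which was 2.32-fold lower in the shelves. Inhba, an activin subunit gene, was under the limit in both heads. It entered only through the shelves, where it was high, so the filter itself favoured a difference in that direction. Without Inhba, 14 of 36 genes were higher (38.9%, beside 11.1% of the 10814 genes that entered in both tissues) and 4 were lower (11.1%, beside 13.2%). The 19 genes are 51.4% of the 37, and 27.9% of all 11999 genes passed. Higher genes made up 40.5%, beside 13% of all genes, and lower genes 10.8%, beside 14.9% of all genes. Id4 and Inhba passed and differed by at least 2-fold, as 6.94% of all genes did. The median coefficient (shelves minus head) was 0.26 over the 37 genes and -0.020 over all genes. It was 0.22 between the wild-type arrays alone and 0.26 between the Tbx1KO arrays alone. Tissue and stage cannot be told apart, since the shelves were taken at E13.5 and the head at E12.5. Fewer cells of a type and less RNA per cell cannot be told apart either in bulk tissue.

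Markers of cell types differed along with this comparison. The mean log2 level of 12 neuronal genes was 9.73 and 9.70 in the wild-type and Tbx1KO heads and 7.47 and 8.07 in the shelves. That of 9 neural progenitor genes was 8.75 and 8.64 in the heads and 7.32 and 7.03 in the shelves, and that of 5 erythroid genes 9.20 and 8.74, then 6.64 and 6.70. The mean of 6 osteoblast genes was 6.39 and 6.53 in the heads and 8.47 and 8.40 in the shelves. That of 8 epithelial genes was 6.80 and 6.81 in the heads and 8.29 and 8.23 in the shelves, and that of 10 palatal mesenchyme genes 8.12 and 8.12, then 9.11 and 9.25. The part of cell makeup in the differences below was not tested.

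**Figure D4:**
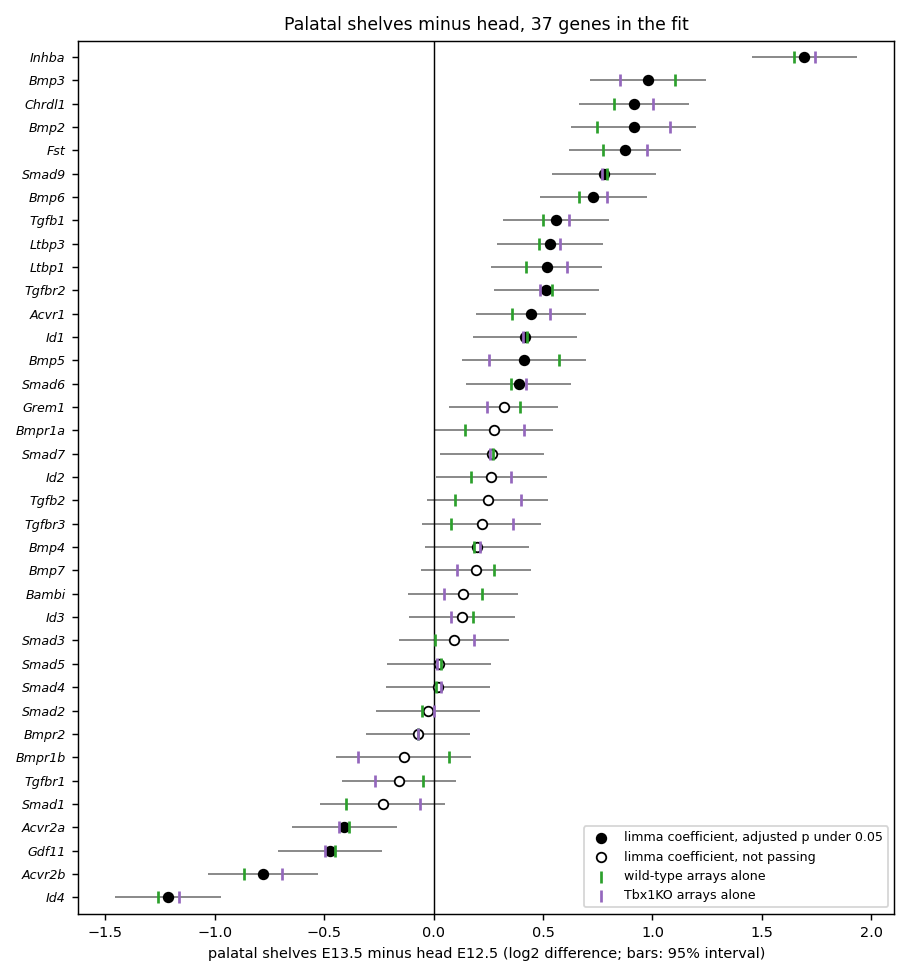
Palatal shelves minus head (log2 difference, x axis) for the 37 genes in the limma fit; circles are coefficients, filled where the adjusted p is under 0.05, bars are 95% intervals, and green and purple ticks are the differences between the wild-type arrays and between the Tbx1KO arrays. Coefficients run from -1.21 for Id4 to 1.69 for Inhba, and the 19 filled circles lie at 0.39 or more on either side.

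Among the 6 BMP-type ligand genes in the fit, 4 were higher in the shelves and 0 lower. Bmp2, a ligand of bone and tooth formation, was at 6.65 in the wild-type head, 6.65 in the Tbx1KO head, 7.40 in the wild-type shelves and 7.73 in the Tbx1KO shelves. The shelf arrays were both above the head arrays, by 0.91 (SE 0.12, limma adjusted p = 0.0021), and the Tbx1KO shelf array was the highest. Bmp3, which counteracts osteogenic BMPs, was at 6.88 in the wild-type head, 7.21 in the Tbx1KO head, 7.98 in the wild-type shelves and 8.07 in the Tbx1KO shelves. Its tissue difference was 0.98 (SE 0.11, limma adjusted p = 0.0012), and its difference of 0.34 between the head arrays was the highest of the 36 genes, exceeded in size by 3.59% of all genes there. Bmp6 was at 6.64 and 6.70 in the heads and 7.31 and 7.49 in the shelves, a tissue difference of 0.73 (SE 0.10, limma adjusted p = 0.0028) with no overlap.

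Bmp5, the ligand altered in short-ear mice, was at 7.62 in the wild-type head, 7.60 in the Tbx1KO head, 8.19 in the wild-type shelves and 7.85 in the Tbx1KO shelves. The shelves were higher by 0.41 (SE 0.12, limma adjusted p = 0.042), and between the shelf arrays the knockout was lower by 0.34, a size that 10.9% of genes exceeded. Bmp4 and Bmp7, also ligands of palate and tooth signalling, did not pass. Bmp4 had a tissue coefficient of 0.20 with a 95% interval of -0.040 to 0.44, and Bmp7 one of 0.19 with an interval of -0.058 to 0.44. Their knockout minus wild-type differences lay between -0.066 and 0.10.

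Of the 4 TGF-beta and activin-type ligand genes in the fit, 2 were higher in the shelves, 1 of them Inhba, and 1 was lower. Inhba, which encodes the beta A subunit of activin and is needed for tooth and palate formation in the mouse, was at 5.78 in the wild-type head, 5.89 in the Tbx1KO head, 7.42 in the wild-type shelves and 7.64 in the Tbx1KO shelves. Both heads were under the limit for entry, and whether their values lie above background is not given by the files. The tissue coefficient was 1.69, and the size of the difference rests on those dim head values. With no limit, where all 22180 genes are tested, the limma adjusted p was 0.00093. Tgfb1 was at 7.48 and 7.31 in the heads and 7.98 and 7.93 in the shelves, higher in the shelves by 0.56 (SE 0.10, limma adjusted p = 0.0081). Gdf11, a ligand of axial patterning and of neurogenesis, went the other way, with 8.39 and 8.27 in the heads and 7.94 and 7.77 in the shelves. Its tissue coefficient was -0.47 (SE 0.099, limma adjusted p = 0.014), and the knockout array was the lower in each pair, by 0.12 in the head and 0.17 in the shelves.

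Tgfb2 did not pass between tissues, and its knockout differences pointed in opposite directions. It was at 8.85 in the wild-type head, 8.70 in the Tbx1KO head, 8.94 in the wild-type shelves and 9.10 in the Tbx1KO shelves. In the head the knockout array was the lower one (-0.14), and in the shelves it was the higher one (0.16).

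Of the 9 receptor genes, 2 were higher in the shelves and 2 were lower. The higher ones were Acvr1, a type I receptor for BMPs, with a coefficient of 0.45 (limma adjusted p = 0.022), and Tgfbr2, the type II receptor of TGF-beta, with 0.51 (limma adjusted p = 0.010). The lower ones were both activin type II receptor genes. Acvr2b was at 7.85 and 7.76 in the heads and 6.98 and 7.07 in the shelves, a coefficient of -0.78 (SE 0.10, limma adjusted p = 0.0024). Acvr2a had a coefficient of -0.41 (limma adjusted p = 0.024). Bmpr2, the type II receptor of BMPs, differed little, between 11.23 and 11.36 on the 4 arrays.

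Bmpr1b, a type I receptor of cartilage condensations, had the lowest difference of any of these genes in the knockout shelves. It was at 6.81 in the wild-type head, 6.71 in the Tbx1KO head, 6.88 in the wild-type shelves and 6.36 in the Tbx1KO shelves. The Tbx1KO shelf array was the lowest of the 4, and 4.1% of genes exceeded the size of its difference of -0.52. Over both pairs the genotype coefficient was -0.31 (SE 0.13, limma adjusted p = 0.919). The related gene Bmpr1a was at 9.005 and 8.82 in the heads and 9.15 and 9.23 in the shelves, so the knockout was the lower array in the head and the higher one in the shelves. Tgfbr1, the type I receptor of TGF-beta, was at 8.69 and 8.71 in the heads, and at 8.64 and 8.45 in the wild-type and Tbx1KO shelves.

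Tgfbr3, which encodes the co-receptor betaglycan, had the highest difference in the knockout shelves. It was at 7.70 in the wild-type head, 7.80 in the Tbx1KO head, 7.78 in the wild-type shelves and 8.16 in the Tbx1KO shelves. The other 3 arrays lay close together, and 8.9% of genes exceeded the size of the shelf difference of 0.38. Over both pairs its genotype coefficient was 0.24 (SE 0.11, limma adjusted p = 0.927).

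Among the 4 antagonist and pseudoreceptor genes in the fit, 2 were higher in the shelves. Chrdl1, a chordin-like BMP antagonist, was at 6.86 and 6.67 in the heads and 7.68 and 7.67 in the shelves, higher by 0.91 (SE 0.10, limma adjusted p = 0.0013). Fst, which encodes the activin binder follistatin, was at 7.32 and 7.38 in the heads, 8.10 in the wild-type shelves and 8.36 in the Tbx1KO shelves. The shelves were higher by 0.88 (SE 0.11, limma adjusted p = 0.0016). Thus the activin subunit gene Inhba and the activin antagonist gene Fst were both higher in the shelves, where both activin type II receptor genes were lower.

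Grem1, the BMP antagonist gremlin, was at 7.08 in the wild-type head, 6.97 in the Tbx1KO head, 7.48 in the wild-type shelves and 7.21 in the Tbx1KO shelves. The knockout array was the lower in each pair, by 0.12 and 0.27. Its tissue coefficient of 0.32 did not pass (95% interval 0.072 to 0.57, limma adjusted p = 0.062). Bambi, a decoy receptor without a kinase domain, had a tissue coefficient of 0.13 (limma adjusted p = 0.384).

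Both latency genes in the fit were higher in the shelves. Latent TGF-beta binding proteins hold TGF-beta in the matrix until it is released. Ltbp1 was at 7.78 and 7.87 in the heads, 8.21 in the wild-type shelves and 8.48 in the Tbx1KO shelves, with a coefficient of 0.52 (SE 0.11, limma adjusted p = 0.013). Ltbp3 had a coefficient of 0.53 (SE 0.10, limma adjusted p = 0.0095), and its knockout array was the higher in each pair, by 0.089 and 0.18.

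Among the Smad genes most differences were small. Of the 6 receptor and common Smads, 5 did not pass between tissues, with coefficients from -0.23 for Smad1 to 0.095 for Smad3. Smad4, shared by all branches, was between 10.46 and 10.49 on the 4 arrays. Smad9 was the exception, at 6.08 in the wild-type head, 6.33 in the Tbx1KO head, 6.87 in the wild-type shelves and 7.10 in the Tbx1KO shelves. The wild-type head value was under the limit for entry, so Smad9 entered in the head through the Tbx1KO array alone. Smad9 was higher in the shelves by 0.78 (SE 0.099, limma adjusted p = 0.0019). Its genotype differences were 0.24 in the head and 0.22 in the shelves, and its genotype coefficient was 0.23 and did not pass (SE 0.099, limma adjusted p = 0.919).

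Of the other receptor Smads, Smad1 was at 7.84 and 7.76 in the heads, 7.44 in the wild-type shelves and 7.69 in the Tbx1KO shelves. The wild-type shelf array was the lowest. Smad5 was at 8.72 and 8.84 in the heads and 8.76 and 8.86 in the shelves, the knockout being higher in each pair by 0.12 and 0.099. In the shelves all 6 of these Smads were above 0, from 0.0041 to 0.26, and in the head 3 of 6 were. Among the inhibitory Smads, Smad6 was higher in the shelves by 0.39 (limma adjusted p = 0.029), and Smad7, at 7.10 and 7.28 in the heads and 7.37 and 7.54 in the shelves, did not pass (coefficient 0.27, limma adjusted p = 0.092).

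The 4 Id genes, which encode helix-loop-helix proteins that block differentiation factors, did not share a direction between tissues. Id4 was at 9.25 in the wild-type head, 9.33 in the Tbx1KO head, 7.99 in the wild-type shelves and 8.17 in the Tbx1KO shelves, a coefficient of -1.21 (SE 0.10, limma adjusted p = 0.00038). Id1, the Id gene most used as a readout of BMP signalling, was higher in the shelves by 0.42 (SE 0.099, limma adjusted p = 0.022). Id2 was at 9.82 and 9.65 in the heads and 9.99 and 10.004 in the shelves, and Id3 at 8.31 and 8.43, then 8.49 and 8.51. Neither passed, with coefficients of 0.26 and 0.13. In the knockout shelves the Id genes differed from wild type by -0.094 (Id1), 0.010 (Id2), 0.012 (Id3) and 0.17 (Id4).

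Some of the 19 calls depended on processing. With no filter on dim genes, where all 22180 genes share the adjustment, Acvr1, Acvr2a, Bmp5, Gdf11, Id1 and Smad6 no longer passed, and Bmp5 did not pass after quantile normalization again.

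Sequences upstream of the start are shown for 4 genes, those with the largest tissue coefficients among the genes with an entry, 2 higher in the shelves (Inhba, Smad9) and 2 lower (Id4, Acvr2b). They are the 250 bases before the RefSeq transcript start in GRCm38.p6, plus strand, at chr13:16011601-16011850 for Inhba, chr3:54755332-54755581 for Smad9, chr13:48260866-48261115 for Id4 and chr9:119401928-119402177 for Acvr2b. Capitals mark matches to 2 motifs bound by Smads, GGCGCC, which reads the same on both strands, and CAGAC, searched on both strands as CAGAC or GTCTG.
Inhba: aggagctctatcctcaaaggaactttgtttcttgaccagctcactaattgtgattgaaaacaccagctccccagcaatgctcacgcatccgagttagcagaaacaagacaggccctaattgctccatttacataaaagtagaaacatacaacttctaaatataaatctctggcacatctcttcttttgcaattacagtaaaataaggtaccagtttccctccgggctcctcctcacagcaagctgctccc
Smad9: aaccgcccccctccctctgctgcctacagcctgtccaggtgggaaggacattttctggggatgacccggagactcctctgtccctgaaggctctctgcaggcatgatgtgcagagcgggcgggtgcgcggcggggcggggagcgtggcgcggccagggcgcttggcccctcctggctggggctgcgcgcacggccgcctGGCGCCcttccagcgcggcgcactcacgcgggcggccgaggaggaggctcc
Id4: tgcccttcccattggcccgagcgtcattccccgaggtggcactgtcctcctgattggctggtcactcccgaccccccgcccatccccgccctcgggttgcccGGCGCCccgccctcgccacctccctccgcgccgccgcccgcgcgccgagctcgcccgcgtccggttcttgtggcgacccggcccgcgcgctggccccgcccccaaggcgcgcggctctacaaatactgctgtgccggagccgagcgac
Acvr2b: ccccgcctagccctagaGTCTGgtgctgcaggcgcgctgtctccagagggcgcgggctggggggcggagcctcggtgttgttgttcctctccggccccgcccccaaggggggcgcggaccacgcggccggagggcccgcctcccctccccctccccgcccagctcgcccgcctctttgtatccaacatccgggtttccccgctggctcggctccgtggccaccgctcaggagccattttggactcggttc

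GGCGCC occurred once each upstream of Smad9 and Id4, CAGAC occurred on the other strand upstream of Acvr2b (as GTCTG), and neither was in the Inhba window. No matches overlapped. The Inhba window had a GC content of 43.2%, and the other windows had 72.8% to 75.6%. Of 32851 windows of this length, 9.59% held GGCGCC and 42.2% held CAGAC. Of 35 windows matched to 29 of the 43 genes, 25.7% held the first and 45.7% the second. Some genes thus have more than 1 window. GGCGCC is made of G and C only, and the part of GC content in these shares was not tested. GGCGCC was thus found beside 1 gene higher and 1 gene lower in the shelves. A match is a run of letters and not a measured binding site.

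Other genes of these pathways, from lists made by role, were counted in the same way. Of 89 measured genes, 67 entered the fit. In the shelves 22 were higher (32.8%, beside 13% of all genes) and 8 lower (11.9%, beside 14.9% of all genes). For genotype 0 passed at a limma adjusted p of 0.05, as did 0% of all genes. The unadjusted limma p was under 0.05 for 6 of them, and for 5.23% of all genes. Of the 30 genes that passed between tissues, 4 entered only through the tissue where they were high, so the filter favoured that direction. These were Htra1 and Ccn2 through the shelves and Msx2 and Gata3 through the head. Without these 4, 20 of 63 were higher (31.7%) and 6 lower (9.52%). Of all genes that entered in both tissues, 11.1% were higher and 13.2% lower, and the lists below are to be read beside these shares. By list, with those 4 left out, the extracellular modulators were higher in 9 and lower in 1 of 18, with a median coefficient of 0.48. The intracellular modulators were higher in 0 and lower in 2 of 16, with a median of -0.078. Other receptors and co-receptors were higher in 1 and lower in 2 of 7, with a median of -0.029. Other ligands were higher in 1 and lower in 0 of 3, with a median of 0.16. Target genes of TGF-beta were higher in 6 and lower in 1 of 11, and target genes of BMP higher in 3 and lower in 0 of 8. The left-out Msx2 and Gata3 are BMP target genes and were lower in the shelves, by -0.99 and -0.44. With them, the BMP target list had 3 higher and 2 lower of 10. With Ccn2, the TGF-beta target list had 7 higher and 1 lower of 12. The target lists share Acta2 and Tagln with the smooth muscle markers and Col1a1 and Sp7 with the osteoblast markers.

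Between knockout and wild type, 4 of the 65 other pathway genes that entered in the shelves differed by at least 1.5-fold. Of all 11449 genes there, 3.25% did either way. All 4 were lower in the knockout, and of all genes 153 were lower and 219 higher by that much. In the head 0 of 65 differed by 1.5-fold, beside 0.458% of all genes either way. Of the genes under the limit, Mstn (-0.97 in the head and -1.63 in the shelves), Lefty1 (0.61 in the head) and Itgb6 (-0.66 in the shelves) also passed 1.5-fold. All 3 were at 5.60 or less on every array. Lrrc32, which anchors latent TGF-beta on cell surfaces, was at 7.04 and 6.91 in the heads, 8.28 in the wild-type shelves and 6.55 in the Tbx1KO shelves. Fstl5, a follistatin-like gene, was at 7.34 and 7.68 in the heads, 8.46 in the wild-type shelves and 6.87 in the Tbx1KO shelves. For each, the wild-type shelf array stood above the other 3. Dlx6, a homeobox gene of the branchial arches, differed by -0.63 and Acta2, the smooth muscle actin gene, by -0.90 in the shelves. None of the 4 passed for genotype over both pairs (limma adjusted p from 0.919 to 0.961).

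Markers differed between the shelf arrays too, counted here over whole lists with no limit on level. In the knockout shelves 12 of 12 skeletal muscle genes were lower, with a median difference of -1.29, and 6 of 6 olfactory mucosa genes, with a median of -1.77. Neural progenitor genes were lower in 7 of 9, with a median of -0.28, and macrophage genes in 6 of 7, with a median of -0.23. Hypoxia genes were higher in 11 of 11, with a median of 0.80, neuronal genes in 11 of 12, with a median of 0.52, and endothelial genes in 7 of 8, with a median of 0.19. Palatal mesenchyme genes had a median of 0.17, osteoblast genes of 0.13, erythroid genes of 0.022, cartilage genes of -0.012, epithelial genes of -0.12 and smooth muscle genes of -0.12. The part of these shifts in the differences of BMP and TGF-beta genes in the shelves was not tested.

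**Figure D5:**
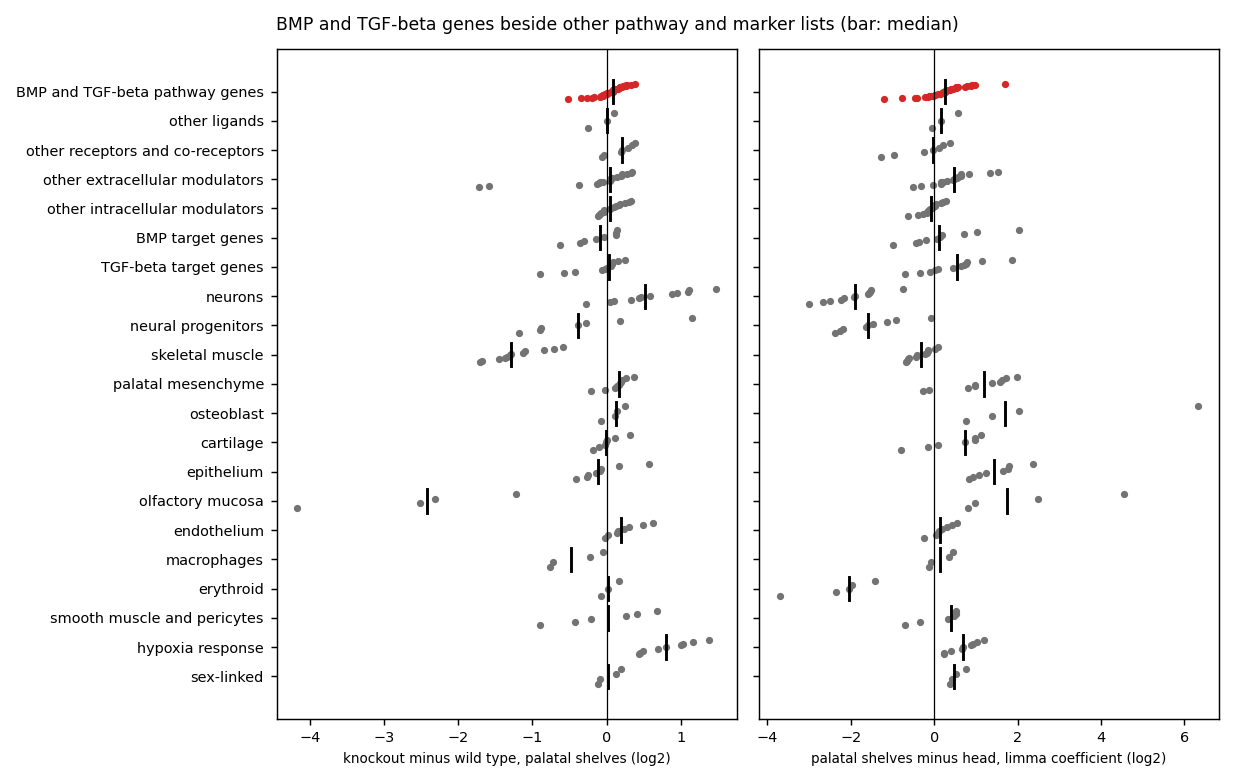
Differences (log2, x axes) of single genes that entered, 1 point each, in the BMP and TGF-beta genes (red) and in other pathway and marker lists (grey), with the list median as a bar; left, knockout minus wild type in the palatal shelves, right, palatal shelves minus head (limma coefficient). On the left the red points lie between -0.52 and 0.38 while muscle and olfactory genes reach lower, and on the right their median is 0.26 and that of neuronal genes -1.91.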

How the data were processed

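RNA of 4 tissue samples was labelled with biotin from 100 ng of total RNA, per the labels' protocols. The authors deposited 1 log2 value for each transcript cluster. The submitters' processing notes name Expression Console and RMA. Their versions and the genome build are not stated there. RMA sets the arrays to 1 common distribution, so a shift shared by most genes is removed. Groups follow the sample titles, and another label field calls the E13.5 samples heads.

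Of 41345 clusters, 23521 had 1 gene symbol in the platform annotation, 1814 had several and 16010 had none listed. Clusters of a gene were averaged, giving 22180 genes, and of the 43 genes only Gdf5 had more than 1. The genotype and tissue effects came from 1 additive fit in limma 3.58.1 (R 4.3.3), Benjamini-Hochberg adjusted over 11999 genes, with 1 residual and 5.49 prior degrees of freedom. The labels do not say how many embryos a sample holds, and no array repeats a condition. The residual of the fit is how far the knockout difference in the head and that in the shelves disagree. The p-values for tissue and for genotype rest on that spread and on the prior. They do not rest on replicates of a condition. The fit was also run on simulated data, with independent noise on each array drawn from the fitted prior. Such data cannot show whether the additive model holds for these arrays.

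The values of single genes are given for those highest and lowest by difference in each pair (5 each way) and for the 10 with the largest tissue coefficient, and other pathway genes are named when past 1.5-fold. The members and lists were chosen with earlier results of these data known. Alternatives were the scale of the arrays, the brightest cluster, the filter, limma's prior and leaving out each array. Some list genes were not analysed here.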

Additional observations from a re-analysis of the deposited data

Results flagged for a closer look

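Tgfb2 was picked out because its knockout minus wild-type difference was below 0 in the head (-0.14) and above 0 in the shelves (0.16), each at least 0.1 in size. The difference between the tissues was 0.30 on the log2 scale. It was not tested, since 1 array per group leaves no residual degrees of freedom for it.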

How the results depend on the processing

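No paired analysis was possible because the labels give no replicate numbers and each group holds 1 array. The counts at 1.5-fold and 2-fold were 0 in each tissue under every scale, filter and cluster choice run, and 0 of the genes passed for genotype under all 9 alternative fits. The 19 tissue calls numbered 13 to 22 over those fits. With no filter on dim genes, 2 genes were lower in the shelves and the median coefficient was 0.198, and with an upper-quartile filter, which tests 28 of the genes, 9 were higher and it was 0.195. It was 0.303 after quantile normalization again. Among genes at or above the limit in both tissues, a choice made after seeing the data, 14 were higher and 4 lower. A mean-variance trend in the prior added Bmpr1a, Grem1 and Id2. Leaving out 1 array at a time leaves no residual degree of freedom, so it gives values with no test. The median genotype coefficient then ran from 0.0082 to 0.084 and the median tissue coefficient from 0.22 to 0.26. In the head the median difference ran from -0.016 to 0.030 and in the shelves from 0.033 to 0.085 over the scales, filters and cluster choices. How far signal exceeded background on each array is not given in the values, which limits what dim genes can show.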
